A study of Mus musculus with 21 samples.

Results

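The comparison described here sets cultured mouse macrophages that had received FcMR for 12 h against untreated cells of 0 h, across all genes measured. FcMR is a recombinant fusion in which the extracellular region of the mannose receptor (MR) is joined to the Fc part of human IgG1. The libraries were chosen by their titles, 3 with FcMR at 12 h and 3 untreated, which is 6 of the 21 libraries of the series, and 13468 of the 23250 genes in the deposited table were tested. All groups were bone-marrow cells of C57BL/6J mice, flushed from femur and tibia and grown for 7 days with supernatant of a cell line that secretes GM-CSF, and the series describes the macrophages that were treated as MR-deficient, while the labels of single libraries give no genotype, age or sex. The study asked what soluble MR does to macrophages, and it also holds 3 libraries given an isotype control for 12 h, which are set beside the FcMR libraries, as well as FcMR and isotype groups at other times. Because the untreated cells were collected at 0 h and the treated ones at 12 h, a difference between them holds the response to FcMR together with the hours in culture and the addition of protein, and from this comparison alone these cannot be told apart. The p-values rest on the spread between libraries of the same group, estimated over all 21 libraries. Nothing in the labels says whether replicates came from separate mice or cultures, so this spread may be technical.

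The mannose receptor is a C-type lectin that takes up glycoproteins, and a form of it is shed from macrophages and circulates in serum. Macrophages that meet an inflammatory stimulus send NF-kB into the nucleus, where it switches on cytokines such as Tnf and Il6 and also its own inhibitors. Many such cells then make type I interferon, which acts through its receptor on genes with an interferon-stimulated response element, so that cytokine and interferon genes follow each other in time.

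Promoters of 4 of the genes are printed first, because they show the DNA letters that these 2 arms are known to be read through. Each is the 250 bases before the transcription start in RefSeq for GRCm38.p6, written 5′ to 3′ on the gene's own strand. Capitals mark matches, on either strand, to a pair of TTTC with any 2 bases between them, the core of the interferon-stimulated response element, or to GGG and TTCC with any 3 bases between them, a core of the NF-kB site, and no matches overlap in these windows. Gbp5 and Ifit3 are the interferon-list members, and Nfkb2 and Tnfaip3 the NF-kB-list members, with the highest fold change among those whose window holds the core of their own list, and they were chosen after the search.
Gbp5, chr3:142496684-142496933, plus strand: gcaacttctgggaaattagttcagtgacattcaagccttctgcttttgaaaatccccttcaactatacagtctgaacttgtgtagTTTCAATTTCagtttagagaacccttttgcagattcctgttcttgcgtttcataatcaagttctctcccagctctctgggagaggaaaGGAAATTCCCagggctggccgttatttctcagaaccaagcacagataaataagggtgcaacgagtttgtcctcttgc
Ifit3, chr19:34583279-34583528, plus strand: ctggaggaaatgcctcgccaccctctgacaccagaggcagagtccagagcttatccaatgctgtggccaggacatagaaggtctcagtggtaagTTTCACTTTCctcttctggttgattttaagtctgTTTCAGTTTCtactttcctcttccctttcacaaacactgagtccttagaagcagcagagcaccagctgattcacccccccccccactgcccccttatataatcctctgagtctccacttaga
Nfkb2, chr19:46304487-46304736, plus strand, the first of its windows: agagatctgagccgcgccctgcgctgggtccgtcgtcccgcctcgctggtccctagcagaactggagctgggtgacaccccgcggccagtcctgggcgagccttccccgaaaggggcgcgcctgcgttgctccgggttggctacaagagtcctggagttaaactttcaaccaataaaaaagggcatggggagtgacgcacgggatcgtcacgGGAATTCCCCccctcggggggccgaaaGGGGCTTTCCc
Tnfaip3, chr10:19015411-19015660, minus strand, the first of its windows: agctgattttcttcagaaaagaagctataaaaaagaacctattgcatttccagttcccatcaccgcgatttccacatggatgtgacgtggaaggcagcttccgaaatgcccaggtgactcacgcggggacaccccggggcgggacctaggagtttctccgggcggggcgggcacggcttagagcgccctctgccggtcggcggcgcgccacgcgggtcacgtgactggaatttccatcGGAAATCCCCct
In Gbp5 the interferon core begins 165 bases before the start, and an NF-kB core on the other strand begins at 77. Ifit3 holds the interferon core at 156 and again at 122 bases before the start. Of the 30 interferon-list genes, 23 had a window, and 11 of these held the interferon core (47.8%), against 3.59% of the 9821 tested genes with a window. Of the 20 genes of the NF-kB list, 17 had a window and 7 held the NF-kB core (41.2%), against 6.32% of the tested genes. No window of the NF-kB list held the interferon core (0 of 17), while 5 of the 23 interferon-list genes held the NF-kB core (21.7%). Neither core was found in the windows of Ifi44, Irf7, Socs3 and Traf1, which says only that these letters are not within those bases.

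The 4 genes with printed promoters all differed between FcMR and untreated cells. Gbp5, a guanylate-binding protein of the interferon response, stood at 14.1, 13.9 and 8.5 CPM (the estimated count scaled to the size of the library, with TMM factors) in the untreated libraries and at 880.1, 725 and 688 in the FcMR libraries, replicates 1 to 3 in each case. Ifit3, an interferon-induced protein with antiviral activity, stood at 15.4, 11.9 and 8.5 CPM and at 826, 627 and 632. For both genes every FcMR library was far above every untreated one, and the log2 fold changes were 5.97 (SE 0.206) and 5.87 (SE 0.224), with edgeR adjusted p-values of 1.6e-13 and 5.31e-13. Nfkb2, which encodes the p100 precursor of an NF-kB subunit, stood at 199.7, 138 and 169.9 CPM against 199, 405 and 391. Here FcMR replicate 1 lay within the untreated range and the other FcMR libraries above it, which gives 0.97 on the log2 scale (SE 0.329, edgeR adjusted p 0.0211). Tnfaip3, the A20 feedback inhibitor of NF-kB, was at 257, 295 and 296 CPM against 489.7, 492 and 473. Every FcMR library lay above every untreated one (log2 0.78, SE 0.0782, edgeR adjusted p 1.89e-07).

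The 6 libraries held 9292540 to 21699811 counts, so that 3 counts correspond to 0.138 to 0.291 CPM. Mrc1 (ENSMUSG00000026712.3, chromosome 2, 14229392 to 14332057 of GRCm38), which encodes the mannose receptor, had 1 to 9 counts in each of them and was too low to be tested. The macrophage markers were present in all 6 libraries and none was at 0, with a summed level of 23912 to 25044 CPM in untreated and 19765 to 23236 CPM in FcMR libraries. Ptprc, the leukocyte gene CD45, was at 521, 579.5 and 534 CPM untreated and 883, 668 and 656 CPM with FcMR. FcMR replicate 1 differed from the other libraries of its group in the representation of GC-rich genes: its GC tilt, the log2 level of genes with at least 57.7% GC minus that of genes with at most 42.3%, relative to all libraries, was −0.731, against 0.700 and 0.797, with 0.0502 to 0.811 in untreated libraries. It correlated at 0.957 to 0.958 with the other FcMR libraries, which correlated at 0.985 with each other, and its part in any result was examined by leaving it out.

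Close to equal numbers of genes were higher and lower after FcMR. Of 13468 genes, edgeR's quasi-likelihood test called 6483 at an adjusted p under 0.05 (48.1%), 3331 higher (24.7%) and 3152 lower (23.4%). A change of over 2-fold as well was seen for 3027 genes (22.5%). Over 16-fold, 175 genes were higher (1.3%) and 79 lower (0.587%). For 7576 genes (56.3%) all FcMR libraries lay on one side of all untreated libraries, and the median log2 fold change of all tested genes was 0.0106. For comparison, isotype libraries of 12 h against the same untreated libraries gave 5602 calls (41.6%), 2965 higher (22%) and 2637 lower (19.6%), and FcMR against isotype at 12 h gave 2169 (16.1%), 1160 higher (8.61%) and 1009 lower (7.49%). The 3 comparisons share libraries in pairs and are therefore given side by side only. With genes in 4 equal classes by level, 40.6% of the lowest class and 59% of the highest were called, and in 4 equal classes by GC content 37.4% of the richest class and 44.9 to 55.5% of the others. A correction for GC content moved that richest class from 18.2% higher and 19.3% lower to 31.9% and 25.1%. Protein-coding genes were called more often (50.3% of 11918) than long non-coding genes (36.8% of 717) and pseudogenes (22.1% of 548), classes that also differ in level.

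**Figure D1:**
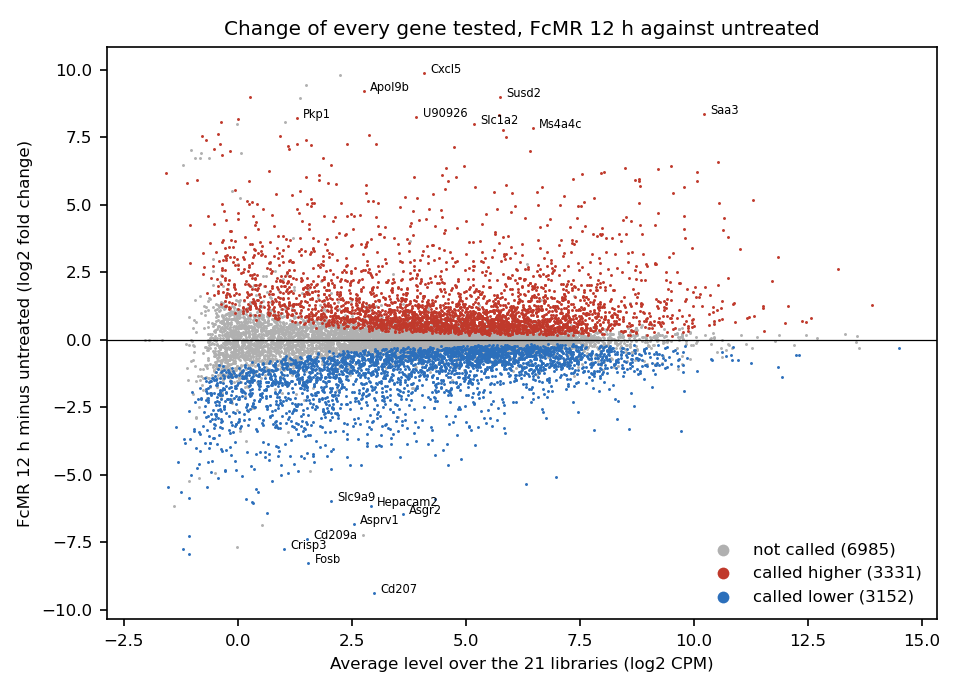
Log2 fold change of FcMR 12 h against untreated (vertical axis) by average level in log2 CPM over the 21 libraries (horizontal axis), with 1 point for each of 13468 genes. Called genes spread to both sides at every level, 3331 above 0 and 3152 below, and the named genes at both ends include Cxcl5 and Cd207.

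The 8 genes with the highest fold changes included the secreted proteins Cxcl5 and Saa3. Cxcl5 (ENSMUSG00000029371.7, chromosome 5, 90759360 to 90761624), a chemokine that attracts neutrophils, was at 0.0972, 0.046 and 0 CPM in untreated and at 42.1, 51.5 and 57.2 CPM in FcMR libraries. No untreated library held more than 3 counts of it, so the fold is the ratio of pooled counts, 1134 (95% exact interval 314 to 9370.1, counting error only). With isotype its libraries held 7.07, 9.095 and 16.8 CPM, above every untreated library and below every FcMR library. Saa3 (ENSMUSG00000040026.8, chromosome 7, 46711998 to 46715700), an acute-phase serum amyloid protein of macrophages, was at 8.55, 7.82 and 8.34 CPM untreated and 2311, 2664 and 3055 CPM with FcMR. It was the most abundant gene of this group, 326-fold higher by the fit (log2 8.35, SE 0.248, edgeR adjusted p 2.68e-14), and isotype libraries lay between the others at 461, 485 and 565 CPM.

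Susd2 (ENSMUSG00000006342.15, chromosome 10, 75636706 to 75644008), which encodes a sushi-domain membrane protein, was at 0.291, 0.184 and 0.163 CPM untreated and 73.1, 122 and 126 CPM with FcMR. Slc1a2 (ENSMUSG00000005089.15, chromosome 2, 102658659 to 102790784), a glutamate transporter best known from astrocytes, was at 0.583, 0.368 and 0.327 CPM untreated and 106, 105 and 111 CPM with FcMR. The FcMR libraries of Slc1a2 lay close together, its isotype libraries held 7.796, 6.601 and 6.3 CPM, and of the 8 genes of this group it had the largest log2 difference between FcMR and isotype, 3.96 (SE 0.155, edgeR adjusted p 2.72e-11). Ms4a4c (ENSMUSG00000024675.19, chromosome 19, 11404770 to 11427246), of the membrane-spanning 4A family, was at 1.17, 1.33 and 0.4904 CPM against 306, 216 and 205. The log2 fold changes of these 3 genes were 8.98, 8.002 and 7.85 (SE 0.357, 0.213 and 0.294). Their edgeR adjusted p-values were 8.14e-13, 9.82e-15 and 4.52e-13. A call and a lack of overlap between the groups were conditions for naming the genes at this end.

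The other 3 genes at the top had at most 3 counts in any untreated library. Apol9b (ENSMUSG00000068246.5, chromosome 15, 77729039 to 77736382), an apolipoprotein L family member, reached 16.3, 21.7 and 16.2 CPM, a pooled ratio of 778 with a wide 95% exact interval of 139 to 30781. U90926 (ENSMUSG00000029409.7, chromosome 5, 92209893 to 92215408) reached 42.5, 30.9 and 36.6 CPM, a pooled ratio of 327 (139.8 to 1008). Pkp1 (ENSMUSG00000026413.12, chromosome 1, 135871395 to 135919207), a desmosome plaque protein, had 0 counts in every untreated library and 1.69, 2.79 and 2.82 CPM with FcMR, at least 10.8-fold higher against the level of 3 counts per library. Pkp1 was at 3.25, 5.13 and 4.48 CPM with isotype, and the 2 treated groups were not called different (edgeR adjusted p 0.0851). Slc1a2, Ms4a4c and Pkp1 overlap other annotated genes, and Apol9b, Saa3 and Ms4a4c have close relatives between which estimated counts can be split.

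The lowest fold changes included several lectins of antigen-presenting cells. Cd207 (ENSMUSG00000034783.7, chromosome 6, 83671215 to 83677857), the langerin lectin of Langerhans cells, was at 28.9, 38.8 and 36.5 CPM in untreated and at 0.147, 0 and 0 CPM in FcMR libraries. It was close to absent from the FcMR libraries, 819-fold lower by pooled counts (95% exact interval 226 to 6769.8), while isotype libraries held 0.393, 0.4401 and 0.212 CPM. Cd209a (ENSMUSG00000031494.7, chromosome 8, 3743397 to 3748984), a mouse relative of the DC-SIGN lectin, went from 13.4, 19.04 and 14.96 CPM to 0, 0.175 and 0.0971 CPM, 189.6-fold lower by pooled counts (73.7 to 698). Asgr2 (ENSMUSG00000040963.15, chromosome 11, 70092644 to 70106187), a subunit of the asialoglycoprotein receptor, went from 64.4, 70.6 and 56.1 CPM to 0.514, 1.05 and 0.68 CPM. Asgr2 was 86.4-fold lower (log2 −6.43, SE 0.241, edgeR adjusted p 4.57e-13).

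Fosb (ENSMUSG00000003545.3, chromosome 7, 19302696 to 19310051), a member of the AP-1 transcription factor family, was at 14.96, 15.04 and 18.9 CPM untreated and 0.0734, 0.0873 and 0 CPM with FcMR, 367-fold lower by pooled counts (101 to 3039). Crisp3 (ENSMUSG00000025433.7, chromosome 17, 40221777 to 40242288), a secreted cysteine-rich protein, went from 8.26, 12.2 and 13.1 CPM to 0.0734, 0 and 0.0486 CPM, 264-fold lower by pooled counts (72.6 to 2182). Asprv1 (ENSMUSG00000033508.7, chromosome 6, 86628164 to 86629710), a retroviral-like aspartic protease, went from 20.8, 19.2 and 28.2 CPM to 0.0734, 0.0873 and 0.34 CPM (log2 fold change −6.83, SE 0.549). Hepacam2 (ENSMUSG00000044156.14, chromosome 6, 3457096 to 3498298), a cell adhesion protein, and Slc9a9 (ENSMUSG00000031129.9, chromosome 9, 94669909 to 95230445), an endosomal sodium-proton exchanger, fell (log2 fold changes −6.17 and −5.97, SE 0.286 and 0.389). A call and a lack of overlap between the groups were conditions for these 8 genes to be named. FcMR and isotype libraries were not called different for 7 of them, all but Asgr2, whose log2 difference was −1.01 (edgeR adjusted p 0.0121), and Cd207 was nearest to a call among the 7 at log2 −2.49 (edgeR adjusted p 0.0558).

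Markers of granulocytes moved with these genes. Of 10 neutrophil markers, 9 fell, where 23.4% of all genes did, and Csf3r rose. Their median log2 fold change was −3.07, and their summed level was 1426 to 1659.7 CPM in untreated and 358 to 574 CPM in FcMR libraries. Retnlg, a neutrophil-secreted resistin relative, fell from 5.64, 4.002 and 8.83 CPM to 0.147, 0.175 and 0.146 CPM, 37.3-fold lower by pooled counts (17.8 to 93.7). Ltf, the lactoferrin of neutrophil granules, was at 80.1, 81.1 and 81.7 CPM untreated and 4.84, 4.37 and 3.35 CPM with FcMR, which is −4.28 on the log2 scale (SE 0.285, edgeR adjusted p 8.11e-10). S100a8 and S100a9, subunits of calprotectin, fell (log2 fold changes −1.03 and −2.198). Of 4 eosinophil markers, Siglecf, Epx and Prg2 fell (log2 fold changes −2.18, −1.87 and −1.43) and Ccr3 was at log2 −0.82 without a call, with summed levels of 609 to 808 CPM against 211 to 316 CPM. All 6 mast cell and basophil markers fell, with log2 fold changes of −0.97 (Cpa3) to −1.903 (Kit) and summed levels of 53.96 to 55.4 CPM against 19.6 to 22.97 CPM. In RNA from a whole culture, fewer cells of a type and less RNA per cell cannot be told apart. The part of these cells in the lower genes above was not tested.

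The same marker lists were lower in the isotype libraries. Their median log2 fold changes against untreated were −2.997 for neutrophil, −1.598 for eosinophil and −1.42 for mast cell and basophil markers. Between FcMR and isotype only Csf3r and S100a8, both higher with FcMR, and Siglecf, lower with FcMR, were called among these 20 markers, where 16.1% of all genes were called (edgeR adjusted p 3.3e-05, 0.0293 and 4.87e-05). Csf3r is the receptor for G-CSF and stood at 26.6, 24.1 and 27.95 CPM untreated, 36.5, 42.96 and 41.8 CPM with FcMR and 22.8, 20.1 and 23.5 CPM with isotype.

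**Figure D2:**
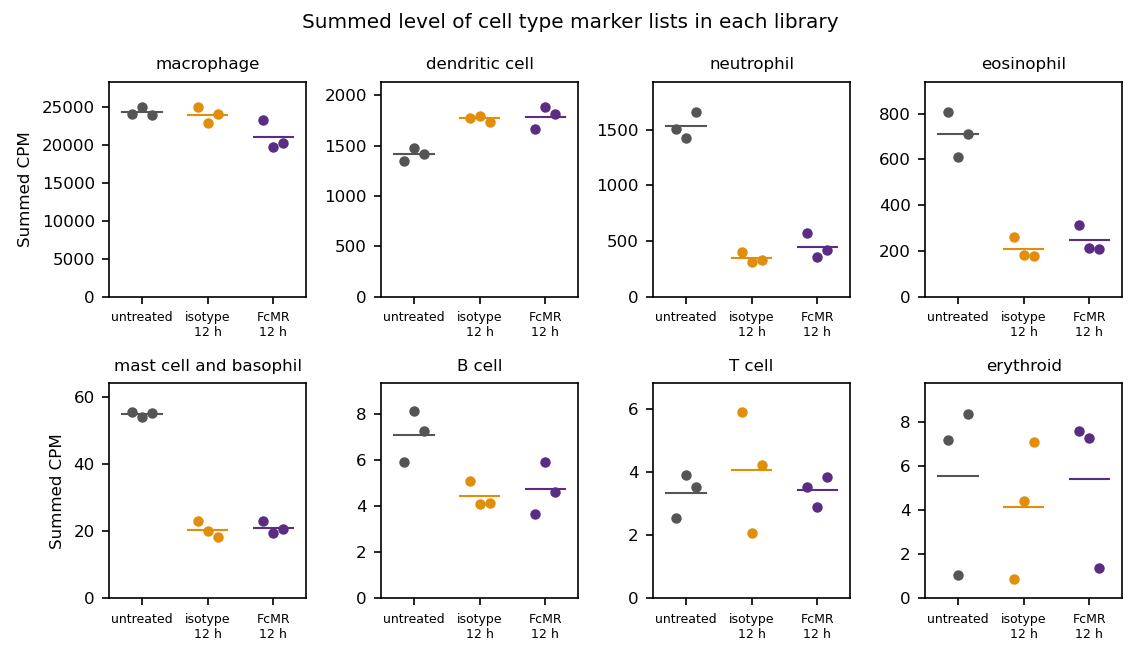
Summed CPM of the markers of 8 cell types (panels, vertical axes from 0) in each untreated, isotype 12 h and FcMR 12 h library, with points for libraries and a line at the group mean. The neutrophil, eosinophil and mast cell panels drop in both treated groups, to 358 to 574 CPM for neutrophil markers with FcMR, while macrophage markers stay at 19765 CPM or more in every library.

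The remaining marker lists were of lower level. B cell markers summed to 5.93 to 8.14 CPM untreated and 3.67 to 5.94 CPM with FcMR. Of these, 2 of 4 were called lower, beside 23.4% of all genes, among them Cd79a, a signalling subunit of the B cell receptor (log2 fold change −1.3). Of the 17 alternatives 7 called fewer than these 2: none with limma on the deposited normalized values or after thinning, and 1 without an expression filter or without FcMR replicate 1 or 3 or untreated replicate 2 or 3. T cell markers summed to 2.53 to 3.91 CPM and 2.88 to 3.84 CPM, and none of the 3 tested was called. Of the NK cell markers only Klrb1c was tested, without a call except when untreated replicate 3 was left out. The 4 haemoglobin genes that were tested were not called either. Of the megakaryocyte markers Ppbp rose (log2 fold change 1.75) and Itga2b fell (log2 fold change −1.57). Ppbp encodes a platelet chemokine that myeloid cells can also express, and it was higher with isotype than with FcMR, at 49.7, 53.1 and 48.3 CPM against 21.1, 16.6 and 15.5. The stromal markers summed to 1.66 to 2.82 CPM untreated and 10.3 to 16.8 CPM with FcMR. Of these, Pdgfrb, a growth factor receptor, rose from 1.75, 0.828 and 0.981 CPM to 7.93, 14.5 and 12.2 CPM (log2 3.33, edgeR adjusted p 7.04e-08), and Dcn rose by a pooled ratio of 10.2 (3.69 to 39.1), but it was not called after thinning (edgeR adjusted p 0.123) and was too low to be tested in a fit of the 6 libraries alone. Col1a1 was not called, and Col1a2 and Col3a1 had at most 3 counts in each of the 6 libraries.

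Macrophage and dendritic cell markers moved in both directions: of 8 macrophage markers 5 rose and 3 fell, and of 8 dendritic cell markers 3 rose and 3 fell. Among all genes 24.7% rose and 23.4% fell. Adgre1, the F4/80 surface protein, rose from 205, 228 and 193 CPM to 1127, 871 and 907 CPM. Every FcMR library was far above every untreated one, and the log2 fold change was 2.21 (SE 0.1304, edgeR adjusted p 1.6e-10). Fcgr1, Mertk, Cd68 and Csf1r rose (log2 fold changes 0.85, 0.43, 0.43 and 0.34), while the integrin Itgam and the lysozyme Lyz2 were among those that fell (log2 fold changes −0.97 and −0.29). The dendritic cell marker Itgax, the integrin CD11c, stood at 1030.4, 1146 and 1081 CPM and 1026, 1092 and 1068 CPM without a call. Flt3, Ccr7 and Dpp4 rose (log2 fold changes 2.85, 1.35 and 0.93), and Clec9a, Siglech and Zbtb46 fell (log2 fold changes −1.87, −1.53 and −0.66). Xcr1 was at log2 −0.77 without a call.

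Among 20 inflammatory cytokines, 14 rose, 2 fell and 4 were not called, beside 24.7% and 23.4% of all genes, with a median log2 fold change of 1.996. Il12a, which encodes the p35 chain of IL-12, rose the most, from 0, 0.184 and 0.0817 CPM to 16.1, 18.6 and 19.5 CPM. It had 0 to 4 counts per untreated library and 213 or more per library with FcMR (log2 fold change 7.25, SE 0.292, edgeR adjusted p 9.9e-13). Il10 (ENSMUSG00000016529.5, chromosome 1, 131019845 to 131024974), an anti-inflammatory cytokine, rose from 0.0972, 0.184 and 0 CPM to 12.7, 9.25 and 9.42 CPM (log2 6.46, SE 0.421). Il6 (ENSMUSG00000025746.11, chromosome 5, 30013114 to 30019981), which drives the acute-phase response, rose from 1.85, 3.31 and 3.27 CPM to 254, 202 and 176 CPM. That is 72.9-fold, or 6.19 on the log2 scale (SE 0.282, edgeR adjusted p 5.37e-12), and isotype libraries held 12.2, 12.9 and 14.02 CPM, between the other groups and without overlap.

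Il1b (ENSMUSG00000027398.13, chromosome 2, 129364570 to 129371139), the secreted pyrogen that is cut by caspase-1, was the most abundant of the cytokines named here, at 90.7, 116 and 107 CPM untreated and 2865, 2256 and 2062 CPM with FcMR. Isotype libraries held only 146, 158 and 145 CPM, and the log2 fold changes were 4.52 for FcMR and 0.52 for isotype against untreated. Il1b overlaps the antisense gene Il1bos, and strandedness of the counting is not given in the sources used here. Tnf (ENSMUSG00000024401.14, chromosome 17, 35199381 to 35202007), an early cytokine, was at 162, 154 and 165 CPM untreated, 482, 511 and 462 CPM with FcMR and 141, 147 and 149 CPM with isotype. It rose with FcMR (log2 fold change 1.597, SE 0.107, edgeR adjusted p 8.63e-10) and was not called with isotype (−0.14, edgeR adjusted p 0.309), and the log2 fold change of FcMR against isotype was 1.74 (edgeR adjusted p 6.77e-09).

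Osm and Csf1 were the 2 cytokines that fell. Osm, oncostatin M, went from 19.3, 21.5 and 21.7 CPM to 10.5, 12.05 and 10.3 CPM (log2 −0.93, SE 0.135). Csf1, the macrophage growth factor, went from 166, 175 and 165 CPM to 126, 134 and 121 CPM (log2 −0.41, SE 0.0975), and its isotype libraries held 137, 123 and 114 CPM. The groups did not overlap for either gene. Il18, Csf2, Tnfsf9 and Il23a, named after their values were seen, were at log2 −0.47, −0.403, 0.32 and 0.603 without a call. Side by side, 9 of the 20 cytokines were called higher and 6 lower with isotype against untreated, beside 22% and 19.6% of all genes (median log2 −0.01), and 18 were higher with FcMR than with isotype, none lower, beside 8.61% and 7.49% of all genes (median log2 1.81).

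**Figure D3:**
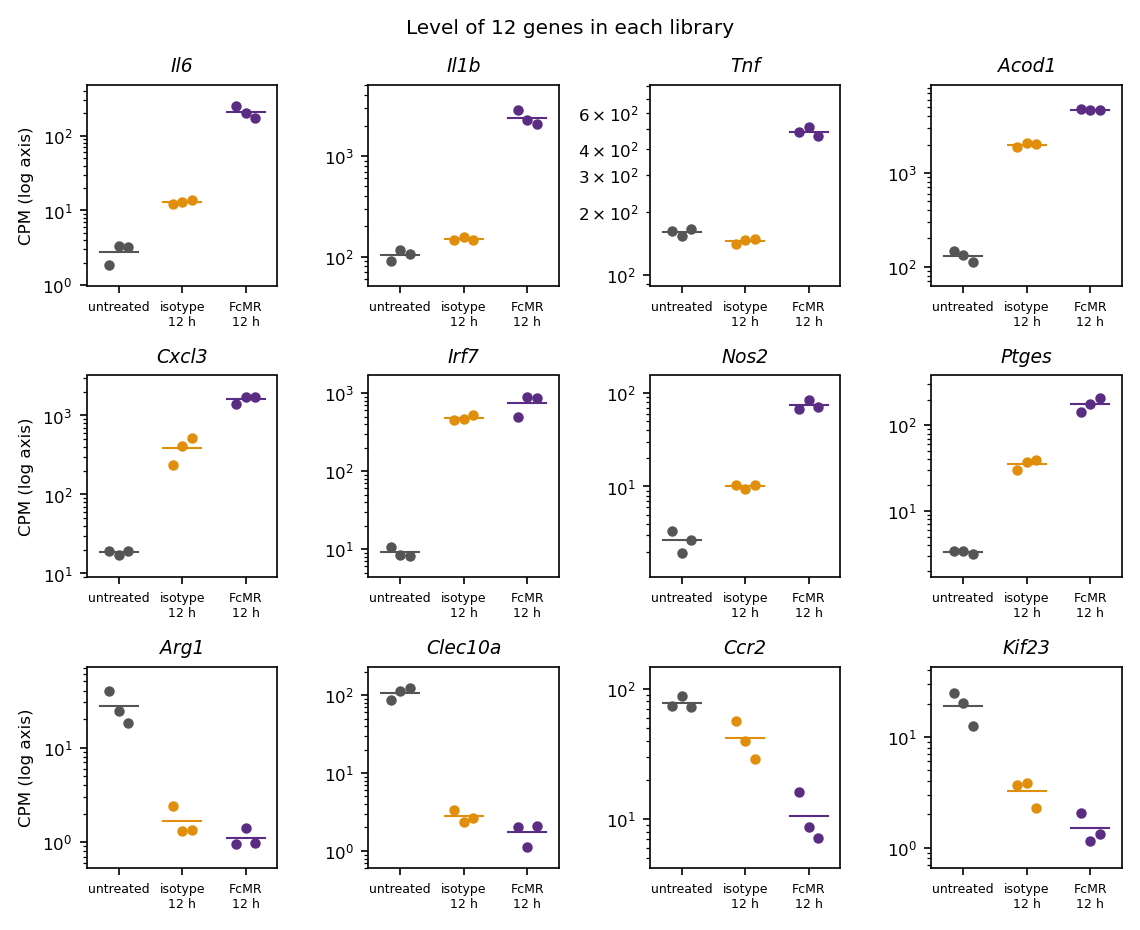
CPM (log axes) of 12 named genes in each untreated, isotype 12 h and FcMR 12 h library, with points for libraries and a line at the group mean. For Il6, Il1b, Tnf, Acod1, Cxcl3, Nos2 and Ptges the FcMR libraries lie above both other groups, while for Arg1, Clec10a, Ccr2 and Kif23 both treated groups lie below the untreated one.

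Of 20 chemokines, 13 rose and 3 fell, beside 24.7% and 23.4% of all genes, with a median log2 fold change of 1.66. After Cxcl5, the neutrophil-attracting Cxcl3 had the highest fold change, from 19.3, 16.9 and 19.4 CPM to 1416, 1695 and 1696 CPM. The groups lay far apart (log2 6.44, SE 0.304, edgeR adjusted p 8.6e-12), and isotype libraries, at 233, 416 and 514 CPM, lay between them. The 3 that fell were Ccl6, Ccl17 and Ccl7, the last named after its values were seen, at log2 −1.38, −1.27 and −1.03. Ccl6, an abundant myeloid chemokine, was at 7033, 7259 and 6936 CPM untreated and 3069.7, 2664 and 2407 CPM with FcMR. Ccl17, which attracts T cells through CCR4, was at 892, 861 and 599 CPM untreated, 349, 358 and 265 CPM with FcMR and 160.1, 147 and 129 CPM with isotype. Both treated groups of Ccl17 lay below the untreated libraries, the isotype one further (FcMR against isotype log2 1.16, edgeR adjusted p 0.000287). Ccl2, Ccl4, Ccl12 and Ccl24, named after their values were seen, were at log2 0.503, 0.42, 0.53 and 0.04 without a call. With isotype 10 chemokines were called higher and 2 lower than untreated, beside 22% and 19.6% of all genes. Between FcMR and isotype 13 were higher and none lower, beside 8.61% and 7.49% of all genes, with a median log2 fold change of 1.18.

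The 20 genes of the NF-kB list are subunits of the factor, its feedback inhibitors and some other genes, such as Socs3 and Traf1. Of the 20, 9 rose and 3 fell (median log2 0.49). Among all genes 24.7% rose and 23.4% fell. Socs3, an inhibitor of IL-6 receptor signalling, rose from 44.5, 30.9 and 36.7 CPM to 114, 208 and 208 CPM. FcMR replicate 1 was the lowest of its group and still above every untreated library (log2 2.25, SE 0.311, edgeR adjusted p 9.66e-06), and isotype libraries, at 36.8, 37.6 and 44.6 CPM, overlapped the untreated ones. Traf1, an adaptor of TNF receptors, rose from 95.1, 92.1 and 88.03 CPM to 293, 399.7 and 369 CPM (log2 1.95, SE 0.168). The 3 that fell were Rel, Tnip3 and Nfkb1, the last named after its values were seen, at log2 −1.16, −0.56 and −0.31. Rel, the c-Rel subunit, went from 273, 344 and 331 CPM to 176, 132 and 117 CPM, with isotype libraries in the same range at 146, 145 and 125 CPM. Between FcMR and isotype 11 of the list were called higher and none lower (median log2 0.74), beside 8.61% and 7.49% of all genes. Isotype against untreated gave 2 higher and 8 lower, beside 22% and 19.6% of all genes. With a correction for GC content the number that rose was 15, and without untreated replicate 2 only Rel was called lower.

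Every gene of the interferon list rose, 30 of 30, beside 24.7% of all genes. The median log2 fold change was 4.21 where the median of all genes was 0.0106. Ifi44, an interferon-induced protein, had the highest fold change, from 1.36, 0.736 and 0.327 CPM to 188, 127 and 113 CPM (log2 7.51, SE 0.332, edgeR adjusted p 3.48e-12). Irf7, the transcription factor that amplifies interferon production, rose from 10.8, 8.33 and 8.26 CPM to 488, 886 and 871 CPM. FcMR replicate 1 was the lowest of its group and within the isotype range of 448, 469 and 529 CPM, and the log2 fold change was 6.37 (SE 0.338, edgeR adjusted p 3.96e-11). Irf7 overlaps Phrf1 on the opposite strand. The smallest log2 fold change of the list was 0.97, that of Irf9, which binds DNA in the interferon response and was named after its values were seen. No gene of the list had overlapping groups, where 56.3% of all genes had none, and all 30 were called under each of the 17 alternatives run. The isotype libraries were also high: all 30 genes were called higher with isotype than in untreated cells, beside 22% of all genes (median log2 3.53). FcMR against isotype gave 21 higher and none lower, beside 8.61% and 7.49% of all genes (median log2 0.69). The log2 difference between the treated groups was 2.2 for Gbp5, 0.96 for Ifi44 and 0.63 for Irf7, the last without a call (edgeR adjusted p 0.123).

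MHC class I presentation, which loads peptides from the cytosol, rose throughout. All 16 genes of the list were called higher, beside 24.7% of all genes (median log2 1.89). Nlrc5, the transactivator of class I genes, rose the most, from 19.04, 22.4 and 15.3 CPM to 175, 178 and 170.5 CPM (log2 3.199, SE 0.123, edgeR adjusted p 5.53e-13). Its FcMR libraries lay within a few CPM of each other, and isotype libraries were at 148, 132 and 136 CPM. The peptide loading genes Tapbp, Tap1, Tapbpl and Tap2 rose (log2 fold changes 2.79, 2.33, 2.098 and 1.43). The proteasome genes Psme2, Psmb10, Psme1, Psmb9 and Psmb8 rose (log2 fold changes 2.81, 2.56, 2.03, 1.94 and 1.84), and the peptide trimmer Erap1 (log2 1.56). B2m, the light chain shared by all class I molecules, rose from 1970.1, 2166 and 2075 CPM to 5067, 4734 and 4985 CPM (log2 1.25, SE 0.0886). The heavy chains H2-M3, H2-K1, H2-T23 and H2-D1 rose (log2 fold changes 1.57, 1.31, 1.26 and 0.83), and reads can be split between these similar genes.

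H2-D1 shows how far FcMR replicate 1 stood apart for some genes. Its untreated libraries held 1849.6, 1438 and 1831 CPM and its FcMR libraries 1871, 3511 and 3745 CPM, so that replicate 1 lay just above the highest untreated library and the others far above it. The SE was 0.299 and the edgeR adjusted p 0.0284, and 13 of 17 alternatives called it. Tap2 was the class I gene whose groups overlapped, at 91.9, 47.3 and 65.96 CPM against 90.2, 235 and 224 CPM, with FcMR replicate 1 inside the untreated range. With isotype all 16 genes were also called higher than untreated (median log2 1.599), beside 22% of all genes. Between FcMR and isotype Psme2 and H2-M3 were called, with log2 differences of 0.57 and 0.596, where 16.1% of all genes were called.

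MHC class II genes, which present peptides from the endosome to helper T cells, went the other way. Of 9 genes, 8 fell, beside 23.4% of all genes, and Ciita was not called (median log2 −0.75). H2-Ob, a chain of the H2-O molecule that restrains peptide loading, fell the most, from 47.3, 47.7 and 43.3 CPM to 4.404, 5.41 and 4.52 CPM (log2 −3.27, SE 0.157, edgeR adjusted p 1.04e-11). H2-DMa, a chain of the loading molecule, and H2-Oa fell (log2 fold changes −1.89 and −1.82). H2-Aa, an alpha chain of the presenting molecule, went from 2668, 3109.6 and 2855 CPM to 1571, 1789.7 and 1766 CPM, without overlap (log2 −0.75, SE 0.0936). H2-Eb1, H2-Ab1, Cd74 and H2-DMb1 fell as well, with log2 fold changes of −0.76, −0.72, −0.57 and −0.51. Ciita, the transactivator of class II genes, was at 138, 108 and 87.5 CPM and 96.8, 142 and 126 CPM (log2 0.13, edgeR adjusted p 0.672). Without FcMR replicate 1, H2-Aa, H2-Eb1, H2-DMa, H2-Oa and H2-Ob were called lower, 5 of the 9. The list fell with isotype too (8 of 9, median log2 −0.71), beside 19.6% of all genes. No gene of it was called between FcMR and isotype, beside 16.1% of all genes, and the median there was log2 0.03.

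Costimulatory molecules, the second signal that antigen-presenting cells give to T cells, and checkpoint ligands, which restrain T cells, went in both directions. Of 13 genes, 5 rose and 6 fell, beside 24.7% and 23.4% of all genes (median log2 −0.25). Cd40, the receptor for T cell help, rose from 29.4, 29.5 and 25.3 CPM to 546, 737 and 660.2 CPM. It was 23.1-fold higher (log2 4.53, SE 0.218, edgeR adjusted p 1.06e-11), and isotype libraries at 149, 184 and 160 CPM lay between the groups. The checkpoint ligands Lgals9 and Cd274 (PD-L1) rose, as did Tnfsf15 and Tnfsf4 (log2 fold changes 2.65, 2.11, 1.31 and 0.57). Other inhibitory molecules, Havcr2, Vsir, Cd200r1 and the checkpoint ligand Pdcd1lg2, fell (log2 fold changes −2.33, −1.49, −0.999 and −0.46). Cd83 and Cd86 fell as well (log2 −0.53 and −0.37).

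Between FcMR and isotype 9 of the 13 genes of this list were called higher with FcMR and 4 lower, beside 8.61% and 7.49% of all genes. With isotype 3 were called higher and 5 lower than untreated, beside 22% and 19.6% of all genes. The classical costimulators Cd80 and Cd86 and the ICOS ligand Icosl were all higher with FcMR than with isotype. Cd80 was at 56.2, 60.6 and 55.3 CPM untreated, 55.8, 46.8 and 42.6 CPM with FcMR and 16.4, 17.02 and 15.6 CPM with isotype. Its FcMR and untreated libraries overlapped (log2 −0.25, edgeR adjusted p 0.232), while the log2 fold change of FcMR against isotype was 1.57 (SE 0.1695, edgeR adjusted p 3.04e-06). Icosl was at 63.6, 70.7 and 63.1 CPM untreated, 70.6, 66.97 and 61 CPM with FcMR and 29.9, 33.9 and 30.2 CPM with isotype (FcMR against isotype log2 1.08, edgeR adjusted p 1.33e-07). Cd86, at 172, 212 and 199 CPM and 176, 146 and 131 CPM, was called lower than untreated at an edgeR adjusted p of 0.0453, but its libraries overlapped and 7 of 17 alternatives called it. Isotype libraries held 77.3, 78.9 and 74.4 CPM of Cd86 (FcMR against isotype log2 0.97, edgeR adjusted p 0.000114).

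Receptors that sense microbes and antibody mostly rose. Of 21 genes tested, 15 rose and 3 fell, beside 24.7% and 23.4% of all genes (median log2 0.67). With isotype 12 were called higher than untreated and 4 lower, beside 22% and 19.6% of all genes (median log2 0.57). Between FcMR and isotype 9 were higher with FcMR and 2 lower, beside 8.61% and 7.49% of all genes (median log2 0.38). Tlr1, a lipoprotein sensor that pairs with TLR2, rose the most, from 2.23, 2.76 and 2.04 CPM to 116, 99.01 and 102 CPM, 44.03-fold (log2 5.46, SE 0.178, edgeR adjusted p 7.61e-14). Tlr3, the endosomal receptor for double-stranded RNA, rose from 2.04, 1.89 and 2.04 CPM to 29.7, 20.7 and 17.7 CPM (log2 3.51, SE 0.251). The 3 that fell were Tlr9, a DNA sensor, Fcgr3, an activating IgG receptor, and Clec7a, the dectin-1 glucan receptor, at log2 −1.33, −1.17 and −0.46 (Clec7a named after its values were seen). Fcgr3 went from 396, 451 and 389.6 CPM to 216, 167 and 165 CPM, without overlap. Fcgr1, the high-affinity IgG receptor, rose from 53.7, 66.2 and 56.2 CPM to 115, 101 and 102 CPM (log2 0.85, SE 0.103). Between FcMR and isotype neither Fcgr1 (log2 −0.07, edgeR adjusted p 0.77) nor Fcgr3 (log2 −0.41, edgeR adjusted p 0.0525) was called.

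Scavenger and uptake receptors, among which the mannose receptor itself belongs, had no common direction. Of 12 tested, 4 rose and 3 fell, beside 24.7% and 23.4% of all genes (median log2 0.03). With isotype 6 of the list were called higher than untreated and none lower, beside 22% and 19.6% of all genes (median log2 0.42). Marco, a scavenger receptor for bacteria and particles, rose the most, from 33.6, 14.2 and 17.3 CPM to 252, 238 and 353 CPM (log2 3.71, SE 0.3603, edgeR adjusted p 1.24e-07). Stab1, Msr1 and Mertk rose (log2 fold changes 1.03, 0.998 and 0.43), and Gas6, Cd5l and Scarb1 fell (log2 fold changes −1.04, −0.78 and −0.502). Cd36, Axl, Colec12, Olr1 and Lrp1 were not called, and Lrp1, an endocytic receptor, had widely spread FcMR libraries (182, 406 and 489 CPM, against 691, 497 and 672 CPM untreated). Without FcMR replicate 1 only Cd5l was called lower, and without untreated replicate 3 only Gas6. Cd163, a haemoglobin scavenger receptor, and Timd4 were not tested.

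Enzymes that turn arginine, aconitate and arachidonic acid into effector molecules mostly rose. Of 21 genes of nitric oxide, itaconate and oxidant metabolism, 16 rose and 2 fell, beside 24.7% and 23.4% of all genes (median log2 1.18). Ptges, the terminal enzyme of prostaglandin E2 synthesis, rose from 3.401, 3.404 and 3.11 CPM to 143, 178 and 206 CPM (log2 5.73, SE 0.236, edgeR adjusted p 1.32e-12). Acod1, which makes itaconate, rose from 148, 133 and 112 CPM to 4809, 4665 and 4662 CPM. Its FcMR libraries were nearly level, and it was 35.98-fold higher (log2 5.17, SE 0.106, edgeR adjusted p 5.43e-16), with isotype libraries at 1879.9, 2054 and 2038 CPM. Nos2 (ENSMUSG00000020826.8, chromosome 11, 78920787 to 78960254), the inducible nitric oxide synthase, rose from 3.304, 1.93 and 2.697 CPM to 67.7, 85.04 and 70.6 CPM (log2 4.86, SE 0.287), and the log2 fold change of FcMR against isotype was 2.87 (edgeR adjusted p 2.34e-07). Arg1, which competes with it for arginine, fell from 39.8, 24.5 and 18.2 CPM to 0.954, 1.397 and 0.971 CPM (log2 −4.65, SE 0.368, edgeR adjusted p 8.39e-09). For Arg1 isotype libraries were as low, at 2.41, 1.32 and 1.33 CPM, and FcMR against isotype was not called (log2 −0.63, edgeR adjusted p 0.339).

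Of 22 glycolytic and hypoxia-response genes, 3 rose and 12 fell, beside 24.7% and 23.4% of all genes (median log2 −0.37). Vegfa, the hypoxia-induced growth factor of vessels, fell from 107, 102 and 136 CPM to 5.65, 8.64 and 8.55 CPM (log2 −3.91, SE 0.268, edgeR adjusted p 1.22e-09). Slc2a3, a glucose transporter, fell from 13.9, 13.1 and 16.2 CPM to 3.16, 2.44 and 2.67 CPM (log2 −2.38). Pfkfb3, which makes the activator of phosphofructokinase, rose from 84.9, 85.7 and 82.7 CPM to 493, 477 and 459 CPM (log2 2.495, SE 0.0948, edgeR adjusted p 5.12e-13), and Hk1 and Hif1a, the latter named after its values were seen, had log2 fold changes of 0.94 and 0.596. After GC correction Slc2a1 and Pfkl were called higher as well. The isotype median was log2 −0.397.

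No gene of the citric acid cycle or of oxidative phosphorylation changed by 2-fold. Of 23, 8 rose and 3 fell (median log2 0.06), which is near or under the 24.7% and 23.4% of all genes. Sdhb and Mdh2, of succinate and malate oxidation, rose (log2 fold changes 0.66 and 0.57), and Idh2 and Sdhd, with Mdh1 named after its values were seen, fell (log2 fold changes −0.59, −0.28 and −0.21). The number that rose was 5 without FcMR replicate 1, without FcMR replicate 3, in a fit of the 6 libraries alone, after thinning and with limma on the deposited normalized values, and of the lower genes only Mdh1 was called without FcMR replicate 1, none without FcMR replicate 2, and only Idh2 without untreated replicate 2 or 3 or with no expression filter.

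Genes of sterol and fatty acid synthesis mostly fell. Of 26 genes, 19 fell and 1 rose, beside 23.4% and 24.7% of all genes, and 6 were not called. The median log2 fold change was −0.85. Hmgcs1, which makes HMG-CoA for the mevalonate pathway, fell from 735, 758 and 717 CPM to 208, 177 and 178 CPM. The FcMR libraries lay close together and far from the untreated ones (log2 −1.97, SE 0.1005, edgeR adjusted p 2.31e-11). Insig1, the sterol sensor that retains SREBP, fell from 322, 339.6 and 319.8 CPM to 114, 105 and 103 CPM (log2 −1.61, SE 0.0864). Pmvk, phosphomevalonate kinase, rose from 40.1, 36.5 and 34.6 CPM to 48.3, 76.9 and 65.1 CPM (log2 0.77, edgeR adjusted p 0.0133), and was not called without FcMR replicate 2. With isotype 16 of the 26 fell and none rose (median log2 −0.64), beside 19.6% and 22% of all genes. Lower with FcMR than with isotype were 6, and none higher, beside 7.49% and 8.61% of all genes.

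Of 15 genes of cholesterol efflux and lipid handling, 5 rose and 4 fell (median log2 −0.02), near the 24.7% and 23.4% of all genes. Acsl1, which activates fatty acids with coenzyme A, rose from 58.1, 51.3 and 50.8 CPM to 1480, 1327 and 1354 CPM, 25.98-fold (log2 4.7, SE 0.103, edgeR adjusted p 9.15e-16). The liver X receptor Nr1h3, Mylip, which degrades the LDL receptor, and Abca1, the cholesterol exporter, rose (log2 fold changes 1.99, 1.08 and 1.07), and the lysosomal lipase Lipa (log2 0.69). Pparg, the lipid-sensing nuclear receptor, fell from 27.4, 32.4 and 28.9 CPM to 3.45, 3.58 and 4.23 CPM (log2 −2.97, SE 0.169, edgeR adjusted p 1.01e-10). Fabp4, a fatty acid carrier, went from 106, 102 and 105 CPM to 36.5, 26.4 and 30.1 CPM (log2 −1.75, SE 0.124). For both genes the isotype libraries lay between the groups, at 12.5, 10.9 and 9.78 CPM for Pparg and 89.9, 68.7 and 81.9 CPM for Fabp4, and the log2 fold change of FcMR against isotype was −1.54 and −1.37 (edgeR adjusted p 3.15e-06 and 3.44e-07). The lipid droplet genes Plin2 and Hilpda fell (log2 fold changes −1.09 and −2.57).

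Fabp5 and Lpl differed from untreated with isotype and not with FcMR. Fabp5, another fatty acid carrier, was at 1203, 1083 and 1182 CPM untreated, 1194, 1086 and 1151 CPM with FcMR and 1867, 1646 and 1939.5 CPM with isotype. Lpl, lipoprotein lipase, was at 2436, 2835 and 2951 CPM untreated, 3608, 2865 and 2752 CPM with FcMR and 4788, 4469 and 4452 CPM with isotype. FcMR and untreated libraries overlapped for both, and the log2 fold change of FcMR against isotype was −0.67 and −0.57 (edgeR adjusted p 4.46e-06 and 0.00193). Apoe, Abcg1, Pltp and Nr1h2 were not called. Apoe, a lipoprotein component, had FcMR libraries at 9.25, 34.7 and 36.9 CPM against 57.6, 38.1 and 59.2 CPM untreated, and Nr1h2, the other liver X receptor, at 16.5, 78.7 and 76.2 CPM against 78.02, 34.9 and 58.4 CPM, with FcMR replicate 1 the lowest in both.

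Most cell division genes fell. Of 20 genes of mitosis and G2/M, 18 fell, beside 23.4% of all genes, and Bub1b rose (median log2 −2.54). Mki67, named after its values were seen, was at log2 −0.14 without a call. Kif23, a kinesin of cytokinesis, fell from 24.7, 20.01 and 12.6 CPM to 2.06, 1.14 and 1.31 CPM (log2 −3.66, SE 0.333, edgeR adjusted p 5.45e-08). Ccnb2, a mitotic cyclin, fell from 17.98, 14.5 and 9.81 CPM to 1.54, 1.75 and 0.583 CPM (log2 −3.504, SE 0.403). Bub1b, a spindle checkpoint kinase, was at 15.3, 14.1 and 10.4 CPM and 22.5, 17.4 and 16.2 CPM (log2 0.49, edgeR adjusted p 0.031), and was not called without FcMR replicate 1 or untreated replicate 3, in a fit of the 6 libraries alone, after thinning or with limma on the deposited normalized values. With isotype 19 of the 20 were lower than untreated and Bub1b higher, beside 19.6% and 22% of all genes (median log2 −1.95).

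In the DNA replication and G1/S list, 12 of 20 fell and 2 rose, beside 23.4% and 24.7% of all genes (median log2 −0.63). Rrm2, a subunit of ribonucleotide reductase, fell from 24.4, 24.01 and 15.2 CPM to 5.798, 4.104 and 5.29 CPM (log2 −2.06, SE 0.275, edgeR adjusted p 6.36e-06), and Ccne2, a G1 cyclin, fell (log2 fold change −1.94). Tyms, thymidylate synthase, rose from 13.8, 9.38 and 8.99 CPM to 20.6, 23.9 and 22.8 CPM, above the isotype libraries at 8.24, 10.9 and 8.62 CPM (FcMR against isotype log2 1.297, edgeR adjusted p 4.61e-05). E2f1, a transcription factor of S phase entry, rose (log2 fold change 0.85), with FcMR replicate 1 inside the untreated range (14.96, 11.7 and 12.2 CPM against 14.3, 27.2 and 28.4 CPM). With isotype 6 of the 20 were lower than untreated and E2f1 higher (median log2 −0.08), beside 19.6% and 22% of all genes. Lower with FcMR than with isotype were 6, beside 7.49% of all genes.

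Immediate-early genes, the transcription factors and phosphatases that respond within minutes of a stimulus, were mostly lower or not called at 12 h. Of 25, 3 rose and 10 fell, beside 24.7% and 23.4% of all genes (median log2 −0.39). With isotype 4 were called higher and 11 lower than untreated, beside 22% and 19.6% of all genes (median log2 −0.25). Between FcMR and isotype 4 were higher with FcMR and 8 lower, beside 8.61% and 7.49% of all genes. Besides Fosb, the zinc finger factor Egr3 fell from 26.9, 17.4 and 21.4 CPM to 0.661, 1.48 and 0.583 CPM (log2 −4.65, SE 0.411, edgeR adjusted p 3.74e-08). The genes that rose were Dusp2, a phosphatase of MAP kinases, Atf3, and Fosl2, the last named after its values were seen, with log2 fold changes of 0.98, 0.32 and 0.29. Atf3, a stress-induced factor, was at 253, 284 and 269 CPM untreated, 329.5, 344 and 332 CPM with FcMR and 427, 449.6 and 496 CPM with isotype, so that it was higher with isotype than with FcMR. GC correction gave 6 that rose, and without FcMR replicate 1 Ier3 and Dusp1 were called higher as well.

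Genes of alternative activation, the state that IL-4 induces, were lower. Of 20, 15 fell and 1 rose, beside 23.4% and 24.7% of all genes, and 4 were not called (median log2 −1.68). The uncalled ones, named after their values were seen, were Ccl24, Egr2, Il4ra and Stat6, between log2 −0.08 and 0.18. Clec10a, a galactose-type lectin, fell from 87.1, 113 and 123 CPM to 2.06, 1.14 and 2.09 CPM, 59.4-fold lower (log2 −5.89, SE 0.242, edgeR adjusted p 1.26e-12). Together with Cd209a it had the lowest fold change of the list. Socs2, a suppressor of growth factor signalling, rose from 43.1, 52.7 and 52.5 CPM to 133, 103 and 85.3 CPM (log2 1.11, SE 0.1599). After GC correction Egr2 was called higher as well. Some members, such as Klf4, Myc, Egr2 and Pparg, also belong to other lists. The isotype libraries were lower for 15 of the 20 (median log2 −1.26), beside 19.6% of all genes. Between FcMR and isotype Il1r2, Irf4 and Cish were higher with FcMR and 6 of the list lower, beside 8.61% and 7.49% of all genes.

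Of 24 lysosomal genes, 10 rose and 1 fell, beside 24.7% and 23.4% of all genes (median log2 0.15). With isotype 15 were called higher than untreated and 2 lower, beside 22% and 19.6% of all genes (median log2 0.30). Between FcMR and isotype 2 were higher with FcMR and 4 lower, beside 8.61% and 7.49% of all genes. Ctsz, a cysteine protease, rose from 1129, 939.9 and 966 CPM to 1904, 2872 and 3097 CPM (log2 1.38, SE 0.218, edgeR adjusted p 4.21e-05). Gaa, which breaks down lysosomal glycogen, rose (log2 fold change 1.33), although FcMR replicate 1 stayed inside the untreated range (38.9, 24.1 and 32.4 CPM against 36.8, 100.3 and 101 CPM). Atp6v0d2, a subunit of the proton pump, fell from 611, 705 and 708 CPM to 421, 323 and 296 CPM (log2 −0.96, SE 0.143). After GC correction Psap and Tfeb were called lower as well, and after thinning all libraries to the smallest total, Psap.

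Among 22 genes of cell death and survival, 12 rose and 4 fell, beside 24.7% and 23.4% of all genes (median log2 0.62). With isotype 9 were called higher and 2 lower than untreated, beside 22% and 19.6% of all genes (median log2 0.20). Between FcMR and isotype 9 were higher with FcMR and 3 lower, beside 8.61% and 7.49% of all genes. Mlkl, which executes necroptosis, rose from 10.1, 10.7 and 9.24 CPM to 127, 99.1 and 103 CPM (log2 3.45, SE 0.126, edgeR adjusted p 3.39e-13). Casp1, the inflammasome protease that matures IL-1 beta, rose from 37.99, 41.7 and 40.1 CPM to 292, 215 and 209.6 CPM (log2 2.58, SE 0.186). The genes that fell were Pmaip1, a pro-apoptotic BH3 protein, and Bcl2, a survival protein, at log2 −1.55 and −0.63, with Ripk3 and Bcl2l11, named after their values were seen, at log2 −0.58 and −0.16. Bcl2 was at 19.9, 20.4 and 20.1 CPM untreated, 13.5, 13.3 and 12.3 CPM with FcMR and 21.5, 22.4 and 21.8 CPM with isotype, lower in the FcMR libraries alone (FcMR against isotype log2 −0.75, edgeR adjusted p 2.47e-05). GC correction gave 7 that fell.

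Of 25 cytokine and growth factor receptors, 12 rose and 9 fell, beside 24.7% and 23.4% of all genes (median log2 0.15). With isotype 10 were called higher than untreated and 8 lower, beside 22% and 19.6% of all genes (median log2 0.26). Between FcMR and isotype 5 were higher with FcMR and 8 lower, beside 8.61% and 7.49% of all genes. Il15ra, which presents IL-15, rose from 6.22, 6.53 and 6.38 CPM to 49.9, 50.3 and 45.6 CPM (log2 2.93, SE 0.117, edgeR adjusted p 8.87e-13), and the IL-2 receptor alpha chain Il2ra (log2 1.804). Ccr2, the receptor that brings monocytes out of the marrow, fell from 73.7, 87.3 and 72.7 CPM to 16.1, 8.64 and 7.09 CPM (log2 −2.89, SE 0.356, edgeR adjusted p 2.45e-06). Isotype libraries lay between the groups, at 56.5, 39.9 and 29.1 CPM (FcMR against isotype log2 −1.98, edgeR adjusted p 0.000508). Ccr7, which guides dendritic cells to lymph nodes, rose from 238, 247 and 265 CPM to 542, 705 and 670 CPM, close to the isotype libraries at 511, 556 and 492 CPM (FcMR against isotype edgeR adjusted p 0.185).

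**Figure D4:**
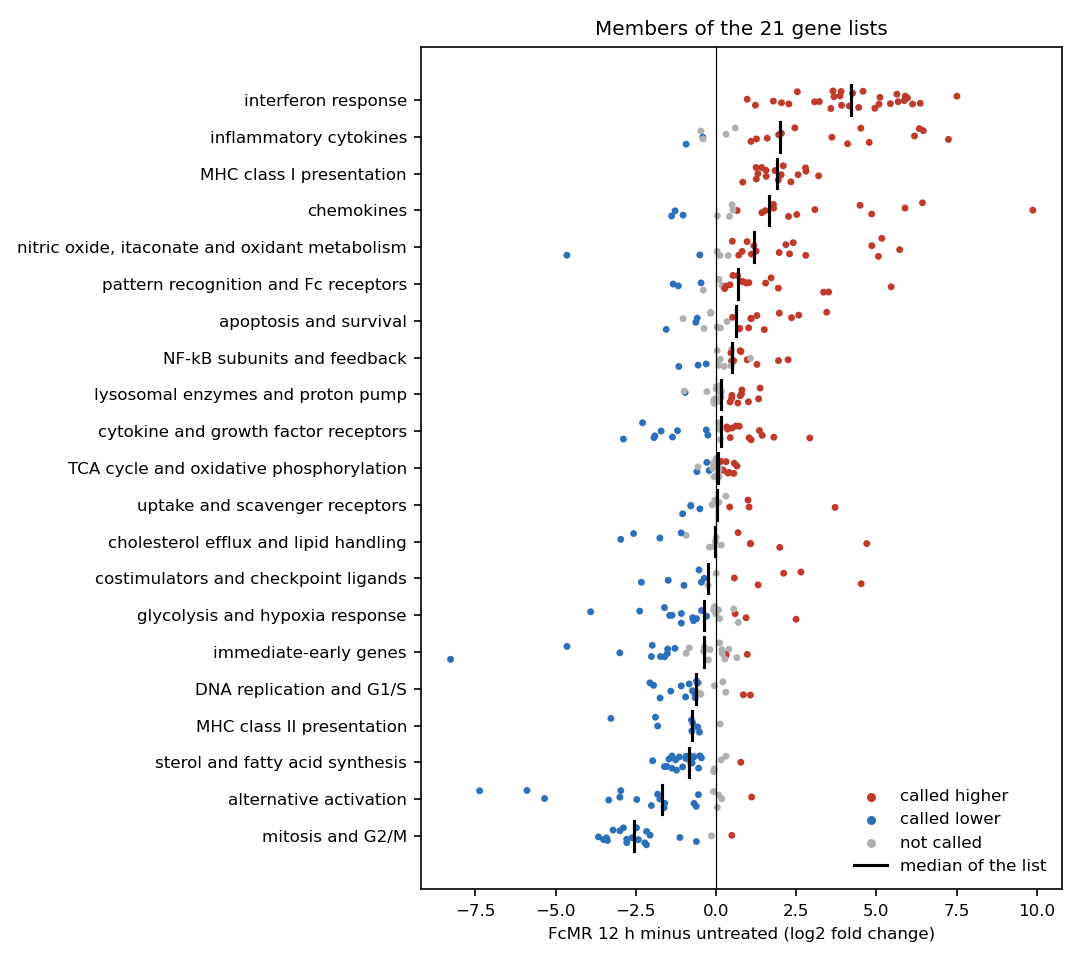
Log2 fold change of FcMR 12 h against untreated for the tested members of the 21 gene lists (rows, ordered by median), with points coloured by call and a bar at the median. All 30 interferon and all 16 class I genes are called higher, and the mitosis and G2/M list has the lowest median, at −2.54.

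The list medians against untreated are set side by side for the treated groups. The medians with FcMR and with isotype were 4.21 and 3.53 for the interferon list, −0.75 and −0.71 for class II, and −0.37 and −0.397 for glycolysis and hypoxia. They were 1.996 and −0.01 for cytokines, 1.66 and 0.55 for chemokines, and 0.49 and −0.14 for the NF-kB list. For cytokines, chemokines and the NF-kB list together, the genes called between FcMR and isotype were all higher with FcMR. In the class II list none was called there, and in the class I list 2 of 16 were, beside 16.1% of all genes. Both sets of medians use the same untreated libraries.

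**Figure D5:**
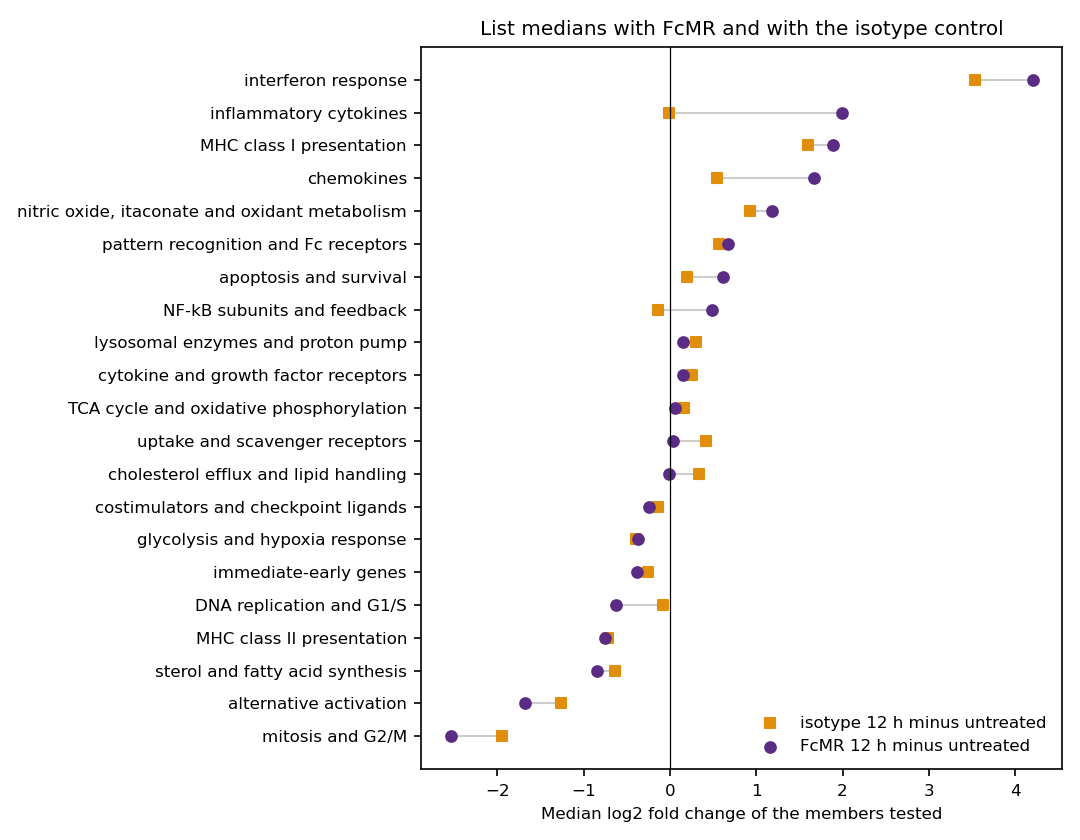
Median log2 fold change against untreated of the tested members of each of the 21 lists (rows), with circles for FcMR 12 h and squares for isotype 12 h, joined by a grey line. The medians are far apart for cytokines (1.996 against −0.01) and close for class II genes (−0.75 against −0.71).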

How the data were processed

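RNA of 21 libraries in 7 groups of 3 was sequenced as single-end reads after a TruSeq v2 preparation, per the labels' protocols. The submitters' processing notes name CASAVA 1.8.2, kallisto 0.44.0, DESeq2 and the mouse builds mm10 and GRCm38, with no role or order, and the annotation and strand setting are not given in the sources used here. The authors deposited estimated counts per gene as whole numbers, where the design had assumed plain counts, and beside them normalized signal values whose scaling is not given in the sources used here, for genes that all have at least 10 counts in sum. The deposited signal values served only as an alternative. The estimated counts were fitted for all 21 libraries in edgeR 4.0.16 (R 4.3.3), with TMM factors, filterByExpr at a minimum count of 10 and a quasi-likelihood test per contrast, and p-values were adjusted by Benjamini-Hochberg over 13468 genes with a threshold of 0.05. A gene is called higher or lower where it passes this threshold.

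Symbols and coordinates came from GENCODE M21 for GRCm38, which matched 23206 of 23250 IDs, and promoter sequences from RefSeq for GRCm38.p6. Genes were named by a written rule: the 8 called genes highest and the 8 lowest by fold change among those of average log2 CPM of at least 1, without overlap between the libraries and with a symbol that is not a predicted one (1 was passed over); up to 2 called genes at each end of every list; all members of lists of 16 genes or fewer; and 7 fixed genes. Some genes that the rule names are not reported here. The members, lists and tests were chosen with earlier results of these data known. Fitted fold changes use edgeR's default prior, and ratios of pooled counts with exact 95% intervals replace them where 1 group holds at most 3 counts in each library; intervals and floors cover counting error only. On simulated counts for 13208 genes with the depths of the 21 libraries, the test recovered 62 of 100 genes changed by 1 on the log2 scale and 85 of 98 changed by 2, with 3 false calls. The simulation changed few genes and held no GC tilt, while 48.1% of genes were called in the data, so these rates may not carry over. The alternatives used limma 3.58.1, DESeq2 1.42.0, RLE factors, other filters, thinned counts, a GC correction, a replicate block and leaving out each library. Of 480 list, marker and named genes that were tested, 153 overlap another gene of the opposite strand and 74 overlap one of their own strand, and estimated counts of such genes and of families such as Saa, Apol9, Ms4a4, H2, Gbp and Bcl2a1 are uncertain. Tables were made with Python 3.11.15, pandas 2.3.3 and scipy 1.17.1.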

Additional observations from a re-analysis of the deposited data

How the results depend on the processing

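The number of genes called between FcMR and untreated cells was 5817 to 6374 when each of the 6 libraries was left out in turn, and 5526 to 8080 under the 11 other alternatives without a fold limit; the share of these calls that were higher was 51.6 to 54.2% and 50.3 to 52.9%. For FcMR against isotype, leaving out a library gave 1570 to 1841 genes, and a correction for GC content raised the count from 2169 to 3274. For isotype against untreated, leaving out a library gave 4577 to 5076. Requiring a change of over 2-fold as well left 3027 genes for FcMR against untreated, 731 for FcMR against isotype and 2251 for isotype against untreated. The labels do not say whether replicate numbers pair the samples. The deviations of same-numbered FcMR and untreated libraries correlated at −0.367, −0.342 and 0.0214. The GC tilt of each library enters these values, so they cannot decide it. A fit with a replicate block called 6581 genes for FcMR 12 h against untreated, 2290 for FcMR 12 h against isotype 12 h and 5753 for isotype 12 h against untreated, and the block with the GC correction gave 8080 and 3447 for the first and the second. Over 17 alternatives for each of 480 genes, 7790 of 8142 values kept their direction and side of the threshold, 242 (59 genes) lost a call and 109 (41 genes) gained one. Gins2, a replication gene, reversed, from −0.58 to 0.0299 on the log2 scale with limma on the deposited normalized values (limma adjusted p 0.963), and the cause was not tested. Of 1088 counts of called list members, 44 moved by over 1.5 times, in 16 list directions. Genes within 3 counts of 0 in a library, 0.138 to 0.291 CPM, are limited by depth.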

Other observations

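Some list members that the naming rule did not reach are given here, and they were chosen after their values were seen. The chains of the cytokine IL-27 were both higher with FcMR: Il27 averaged 0.371 ± 0.0692 CPM (SD, n = 3) untreated and 10.7 ± 3.75 CPM with FcMR (edgeR adjusted p 1.16e-07), and Ebi3 averaged 23.7 ± 5.86 and 56.6 ± 14.4 CPM (edgeR adjusted p 0.000132). The ligands of CXCR3 rose as well. Cxcl9 averaged 0.825 ± 0.307 CPM untreated and 23.4 ± 2.87 CPM with FcMR, and Cxcl10 33.7 ± 6.24 and 162 ± 24.4 CPM (edgeR adjusted p 1.37e-12 and 8.33e-10). Clec4e, the Mincle receptor for mycobacterial glycolipid, averaged 404 ± 35.3 CPM untreated, 1186 ± 88.5 CPM with isotype and 4131 ± 699 CPM with FcMR (log2 fold change 3.35 against untreated and 1.801 against isotype). Ptgs2, the inducible cyclooxygenase that feeds Ptges, averaged 9.2 ± 0.892 CPM untreated, 27.02 ± 3.64 CPM with isotype and 308 ± 50.7 CPM with FcMR (log2 fold change 5.06 and 3.51). No FcMR library of these 6 genes overlapped an untreated one.

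Several lower genes stood at like levels in both treated groups. Mgl2, a galactose-type lectin beside Clec10a in the genome, averaged 1129 ± 107 CPM untreated, 198 ± 6.78 CPM with isotype and 204 ± 16.7 CPM with FcMR, and Tgm2, a transglutaminase, 1219 ± 132, 270.3 ± 24.4 and 362 ± 85.3 CPM. FcMR and isotype were not called different for either (edgeR adjusted p 0.87 and 0.364). Cdh1, the adhesion protein E-cadherin, differed: it averaged 62.7 ± 8.77 CPM untreated, 12.8 ± 1.19 CPM with isotype and 6.19 ± 0.852 CPM with FcMR (FcMR against isotype log2 −1.05, edgeR adjusted p 0.000347). Cx3cr1, the fractalkine receptor, averaged 2.74 ± 0.963 CPM untreated and was higher in both treated groups, at 10.6 ± 0.744 CPM with isotype and 4.56 ± 0.313 CPM with FcMR, so that FcMR against isotype was negative (log2 −1.21, edgeR adjusted p 0.000111).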
